A study of Chlamydomonas reinhardtii with 16 samples.

Results

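Biliverdin IXα (BV) was given to dark-grown cultures of the unicellular green alga Chlamydomonas reinhardtii, and 75 of the 17301 genes in the deposited table were chosen because their transcript level was higher with BV in the dark wild type. Levels are in RPKM, a read count corrected for gene length and for sequencing depth. A gene was taken when its mean RPKM plus 1 was at least 2 times as high in dark wild type with BV as in dark wild type without BV. Both BV libraries also had to lie above both libraries without BV, and the BV mean had to reach 2 RPKM. The genes were thus chosen by the RPKM values of these 4 dark wild-type libraries, which are given below as a description with no test.

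RNA sequencing covered 16 libraries in 8 groups of 2. The groups were the mutant hmox1 and the wild type 4A+ (WT), each after light with BV, after light without BV, in the dark with BV and in the dark without BV. All cultures grew in darkness on TAP, a medium with acetate as carbon source, and all media held 0.5% methanol, with BV IXα at 0.1 mM or with none. White light of 150 µmol photons per square metre and second was given for 30 min, and the dark samples were harvested before it. No group was kept dark over those 30 min. In every difference between light and dark, light and elapsed time therefore cannot be told apart, also where genes are said to rise or fall with light. Nothing in the labels says whether replicate libraries came from separate cultures. The p-values therefore reflect the spread among libraries alone, and that spread may be technical. With 1 mutant strain, the mutated gene and other differences between the strains cannot be told apart, and the mutant's own affected transcript was not identified here.

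Heme oxygenase opens the ring of heme and releases biliverdin, a linear tetrapyrrole. In algae and plants, further reduction of biliverdin gives other bilins, which serve as chromophores of light-sensing or light-harvesting proteins. Heme and chlorophyll are made by branches of a shared pathway in the chloroplast, and linear tetrapyrroles have been studied as signals between chloroplast and nucleus during greening. BV fed to a heme oxygenase mutant supplies the product of the affected step from outside.

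The libraries held 10213385 to 43414139 reads in genes, and 3 reads in a gene of 2 kb correspond to 0.147 RPKM in the shallowest and 0.0346 RPKM in the deepest. The 75 genes had recovered lengths of 89 to 10540 nt with a median of 2176 nt, against a median of 2244 nt over all genes. Over the 75 genes, replicate libraries correlated with Pearson's r of 0.988 to 0.996 on the log2(RPKM + 1) scale. The libraries of light-treated WT with BV differed most, with a median SD over all tested genes of 0.12 on the log2 scale. In the other groups it was 0.053 to 0.076. The pooled spread understates the error of comparisons with that group, whose p-values are therefore rather too low. Genes are named by identifier, since the files do not pair identifiers with gene names. For the same reason the roles of the genes are not given.

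In the dark WT the ratio of RPKM plus 1 had a median of 2.5 over the 75 genes. It was 4 or more in 15 genes, 3 to 4 in 9 and 2 to 3 in 51. The highest ratio, 17.04, belonged to Cre03.g163950, with 26.4 and 24.6 RPKM in dark WT with BV, against 0.515 and 0.596 RPKM without it. Cre01.g045200 followed with 53.0 and 51.3 RPKM with BV, against 2.71 and 1.83 RPKM without. Both genes were thus low in dark WT and reached intermediate levels with BV. Cre14.g631141 had 20.4 and 18.4 RPKM with BV, against 1.20 and 1.73 RPKM without BV. Cre17.g713700 had 9.62 and 9.31 RPKM with BV, against 0.268 and 0.304 RPKM without. Cre06.g310950 had 19.6 and 20.1 RPKM with BV, against 2.07 and 1.89 RPKM without BV. In all 5 of these genes the libraries of a group lay close together compared with the distance that the choice required.

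The chosen genes spanned a wide range of levels. In dark WT with BV the mean was under 5 RPKM in 19 genes, 5 to 20 RPKM in 34 and 20 RPKM or more in 22, with a median of 11.4 RPKM. The 5 most abundant were Cre07.g349200, Cre07.g337100, Cre02.g107200, Cre08.g372200 and Cre56.g791150. Cre07.g349200 had 396.3 and 378.2 RPKM in dark WT with BV, against 184.8 and 162.8 RPKM without. Cre07.g337100 had 166.1 and 128.7 RPKM with BV, against 68.8 and 59.7 RPKM without BV. Of the 5 most abundant genes, 3 had ratios below the median of the set, 2.22 for Cre07.g349200, 2.27 for Cre07.g337100 and 2.09 for Cre02.g107200. The other two had ratios above it, 3.21 for Cre08.g372200 and 2.77 for Cre56.g791150. Just inside the threshold lay Cre26.g773550 and Cre12.g545950, both with a ratio of 2.001, and Cre16.g663450 with 2.013. Just outside it lay Cre07.g320550 with 1.997, Cre12.g539900 with 1.988 and Cre02.g084400 with 1.987. The bound separates no gap in the values. Cre03.g189900 and Cre34.g783400, of 89 nt each, entered with as few as 4 reads in a dark WT library with BV, and their RPKM values rest on few reads throughout.

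In the order of their identifiers, 3 pairs of the chosen genes had no listed gene between them. These were Cre07.g346900 with Cre07.g346950, Cre02.g107165 with Cre02.g107200, and Cre10.g426100 with Cre10.g426150. Cre06.g310950 and Cre06.g311050 had 1 gene between them. Neighbouring or similar genes can share reads, and whether the counting used strand is not known here. By identifier, 12 of the 75 lay on chromosome 02, 8 on chromosome 07 and 7 on chromosome 03. These chromosomes held 1627, 993 and 1361 of the 17301 genes. Chromosomes 01, 08 and 12 had 6 members each, among 1568, 614 and 1672 genes. Whether the members cluster by chromosome was not tested.

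Across all groups, the summed RPKM of the 75 genes was 2067.6 and 1962.8 in dark WT with BV, where they had been chosen to be high. In light-treated hmox1 the sums were 1577.3 and 1722.9 with BV, and 1090.7 and 1139.2 without BV. In dark hmox1 they were 1547.8 and 1498.1 with BV, and 1244.8 and 1109.5 without BV. In light-treated WT they were 1486.5 and 1472.2 with BV, and 974.5 and 964.3 without BV, and in dark WT without BV they were 756.7 and 698.6. The medians gave another order, since a few abundant genes carry the sums. The median member stood at 1.53 RPKM in light-treated hmox1 with BV and 0.872 RPKM without, and at 3.64 RPKM in dark hmox1 with BV and 2.66 RPKM without. In WT it stood at 1.58 RPKM in the light with BV and 0.681 RPKM without, and at 11.4 RPKM in the dark with BV and 2.72 RPKM without. After light without BV, 39 of the 75 genes had a mean under 1 RPKM in hmox1 and 44 in WT. In bulk RNA, fewer cells with a transcript and less of it per cell cannot be told apart.

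**Figure D1:**
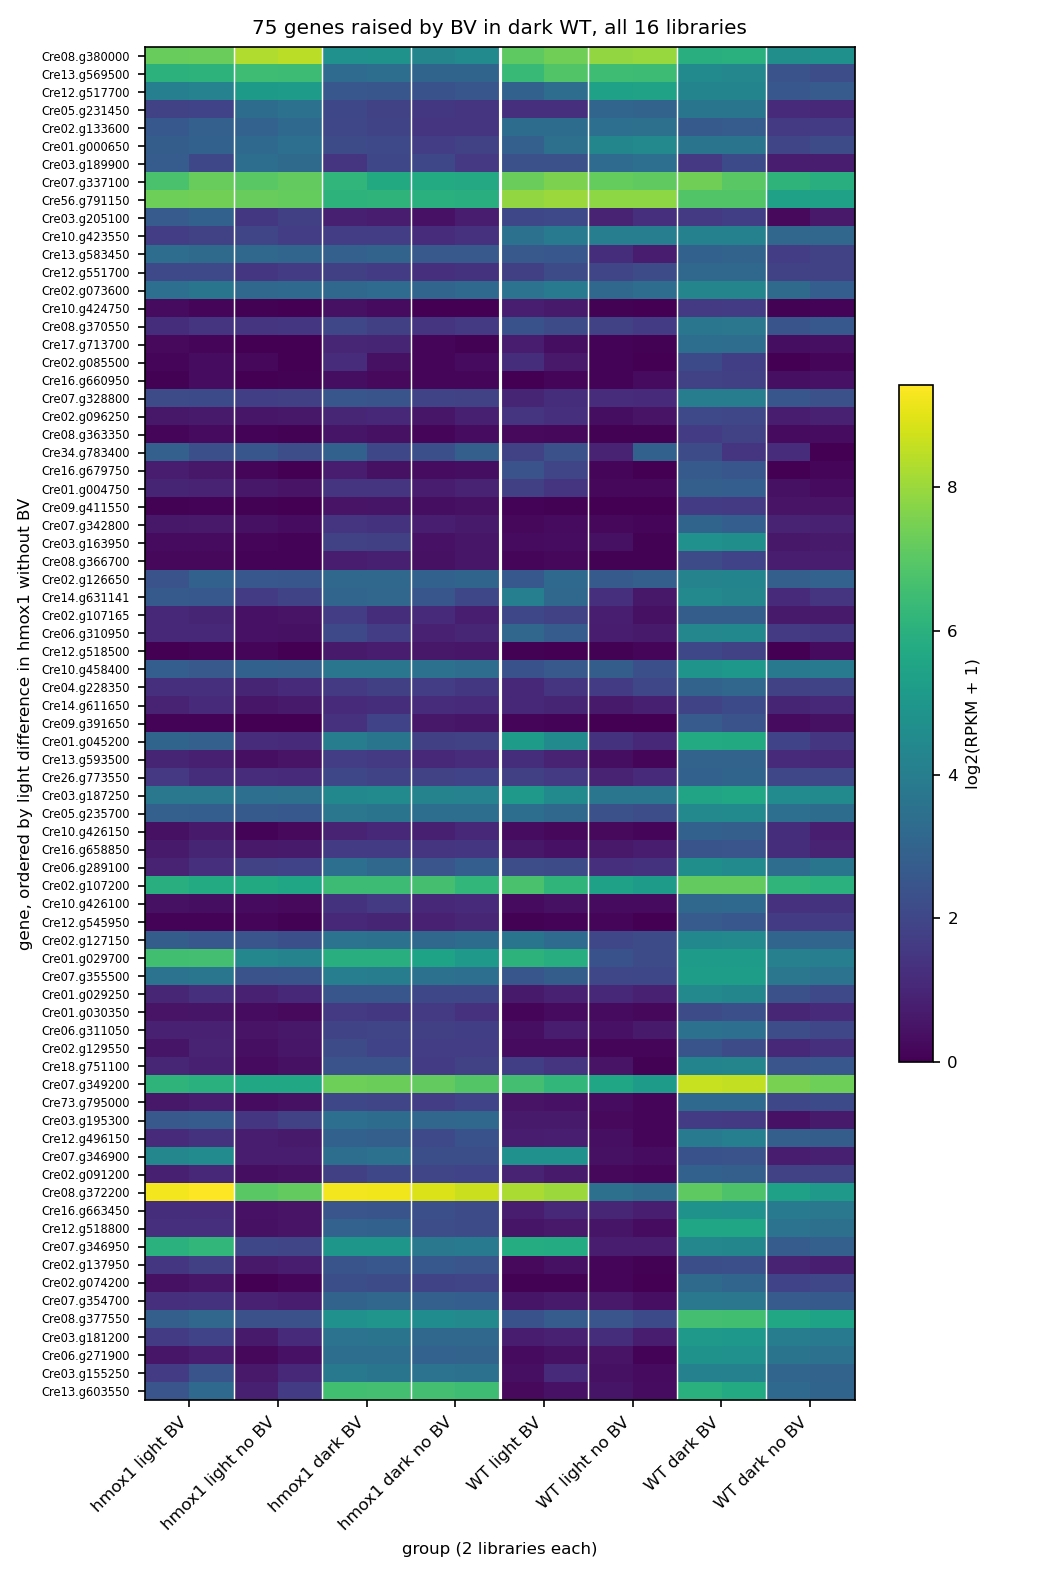
Levels of the 75 genes (rows, ordered by the light difference in hmox1 without BV) in the 16 libraries (columns, 2 per group), coloured by log2(RPKM + 1). The dark WT columns with BV are brighter than those without BV, as the genes were chosen, and most rows below the top 12 are darker after light than in the dark in hmox1 without BV.

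The same treatment in dark hmox1 shows the genes in libraries that did not choose them. BV raised 15 of the 75 genes in dark hmox1 and lowered 0, by limma on log2(RPKM + 1) with Benjamini-Hochberg adjustment over all 13972 tested genes and a threshold of 0.05. Over all tested genes 0.193% were called higher and 0.129% lower. The 15 genes are 20% of the set. At an unadjusted p under 0.05 limma found 46 of the 75 higher and 0 lower, against 2.84% and 3.6% of all tested genes. The 75 genes had a median log2 difference of 0.30, against -0.03 over all tested genes, with a range of -0.09 to 1.96. In 70 of them the difference was above 0, and in 5 it was 1 or more. The shares of all tested genes at these bounds were not computed, so nothing is read from these counts. In 62 of the 75 genes both dark hmox1 libraries with BV lay above both without BV, against 13.1% of all tested genes, and in 0 both lay below. All 75 genes passed the filter on low values because the choice itself asks for at least 2 RPKM in dark WT with BV. On the 12 libraries that took no part in the choice 68 passed, of which 12 rose, against 0.175% of all genes tested there. Without replicate 1 or replicate 2 of dark hmox1 with BV the number of genes that rose was 9 in each case, against 0.122% and 0.129% of all tested genes.

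The genes that rose in dark hmox1 included both leaders of the dark WT list. Cre01.g045200 had 14.4 and 11.5 RPKM in dark hmox1 with BV, against 2.47 and 2.67 RPKM without BV. It rose by 1.96 ± 0.19 on the log2 scale (SE, limma adjusted p = 2.1e-04), to a level below the 53.0 and 51.3 RPKM of dark WT with BV. Cre03.g163950 had 2.67 and 2.46 RPKM with BV, against 0.363 and 0.471 RPKM without, a log2 difference of 1.33 ± 0.10 (limma adjusted p = 5.2e-06). Its mean with BV was 2.56 RPKM in dark hmox1, far below the 25.5 RPKM of dark WT. Cre17.g713700 had 1.03 and 0.946 RPKM in dark hmox1 with BV, against 0.0815 and 0.0401 RPKM without (log2 difference 0.91 ± 0.10, limma adjusted p = 2.1e-04). It had 3 reads in each dark hmox1 library without BV, so the low side of this comparison is near the counting floor. Cre06.g310950 had 3.20 and 2.31 RPKM with BV, against 0.82 and 1.04 RPKM without BV (log2 difference 0.95 ± 0.13, limma adjusted p = 1.2e-03). All 4 genes had no overlap between the groups, and all 4 stayed below their level in dark WT with BV. As the dark WT levels chose the genes, nothing is read from that distance.

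The neighbours Cre07.g346900 and Cre07.g346950 rose in dark hmox1 by amounts close to each other. Cre07.g346900 had 9.59 and 10.4 RPKM in dark hmox1 with BV, against 3.74 and 3.79 RPKM without (log2 difference 1.21 ± 0.10, limma adjusted p = 5.2e-06). Cre07.g346950 had 30.4 and 30.9 RPKM with BV, against 12.6 and 13.5 RPKM without (log2 difference 1.17 ± 0.09, limma adjusted p = 5.2e-06). Unlike the leaders, both stood higher in dark hmox1 than in dark WT under either treatment, with 4.24 and 4.35 RPKM for Cre07.g346900 and 19.4 and 18.9 RPKM for Cre07.g346950 in dark WT with BV. Smaller rises belonged to Cre12.g518800, with 6.84 and 6.50 RPKM in dark hmox1 with BV against 3.70 and 3.57 RPKM without (log2 difference 0.73 ± 0.10, limma adjusted p = 1.5e-03). Its call was lost with a pseudocount of 0.1 (limma adjusted p = 0.12). Cre12.g496150 had 6.61 and 6.30 RPKM with BV, against 3.22 and 4.23 RPKM without BV (log2 difference 0.67 ± 0.12, limma adjusted p = 0.018). The gene lost this call without either dark hmox1 library with BV (limma adjusted p = 0.26 and 0.098), without replicate 1 of dark hmox1 without BV (0.40) and with a pseudocount of 0.1 (0.57).

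**Figure D2:**
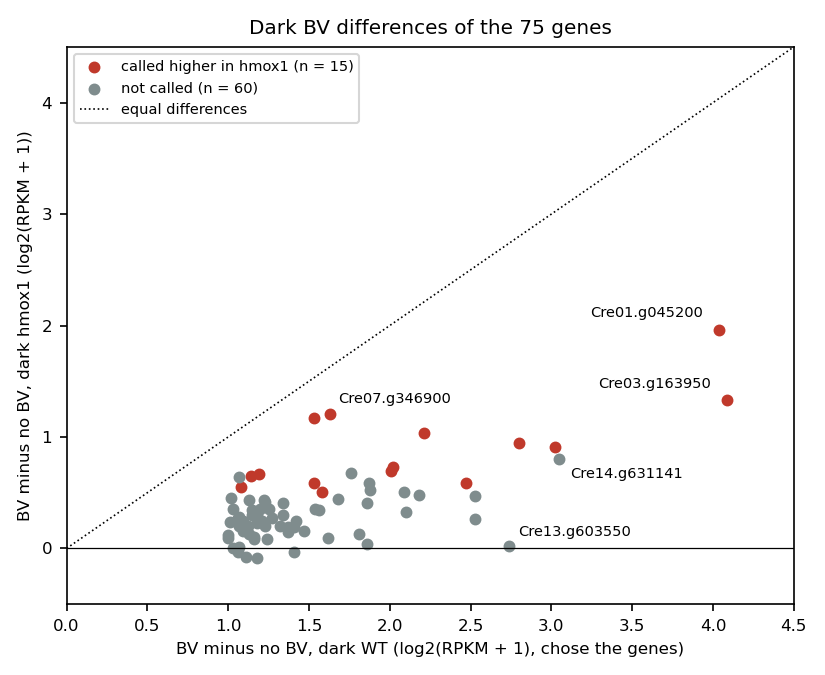
Each point is 1 of the 75 genes, with the BV difference in dark hmox1 (vertical axis) against the BV difference in dark WT (horizontal axis), both in log2(RPKM + 1). The horizontal values chose the genes. The 15 genes that rose in hmox1 are red, and all 75 points lie below the dotted line of equal differences.

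Some of the genes already stood high in the mutant. In dark hmox1 without BV both libraries lay above both dark WT libraries without BV in 29 of the 75 genes, against 49% of all tested genes, and below both in 36, against 18.4%. As the WT values took part in the choice, nothing is read from these counts. In 5 genes, Cre13.g603550, Cre08.g372200, Cre02.g137950, Cre34.g783400 and Cre03.g195300, both dark hmox1 libraries without BV lay above both dark WT libraries with BV, against 54.8% of all tested genes. These 5 were picked after their values were seen, and Cre34.g783400 is the 89-nt gene with few reads. Cre13.g603550 had 93.3 and 96.4 RPKM in dark hmox1 with BV and 97.4 and 90.1 RPKM in dark hmox1 without BV. In dark WT it had 61.9 and 52.7 RPKM with BV, against 8.23 and 7.23 RPKM without. Its libraries with and without BV overlapped in dark hmox1, with a log2 difference of 0.02 ± 0.28 (SE). That error is pooled over all groups and by itself leaves room for a change of moderate size. The dark hmox1 libraries themselves lay between 90.1 and 97.4 RPKM. Cre08.g372200 had 610.7 and 588.3 RPKM in dark hmox1 with BV and 478.3 and 407.6 RPKM without. In dark WT the same gene had 133.3 and 108.9 RPKM with BV, against 41.0 and 33.1 RPKM without BV. Cre03.g195300 had 9.77 and 9.13 RPKM in dark hmox1 with BV and 7.63 and 7.90 RPKM without, while dark WT had 2.12 and 2.05 RPKM with BV and 0.391 and 0.593 RPKM without.

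After 30 min of light, BV raised 32 of the 75 genes in WT and lowered 7. Over all tested genes 32.7% were called higher and 13% lower, so the share of the set that rose, 42.7%, lay somewhat above that of all genes and the share that fell, 9.33%, somewhat below. The median log2 difference of the 75 was 0.16, against 0.13 over all tested genes, and the range was -2.25 to 5.04. With a pseudocount of 0.1 the medians were 0.53 and 0.22. With quantile scaling 30 rose and 14 fell, which is 40% and 18.7% of the set, against 20.5% and 18.2% of all tested genes. Without replicate 2 of light-treated WT without BV 4 fell, against 9.84% of all tested genes. Many of the 75 passed the filter only through other groups. With only the libraries of light-treated WT 42 passed, of which 24 rose and 6 fell, against 27.9% and 13.2% of all genes tested there, with medians of 0.64 and 0.12. Genes low without BV enter that count only if they are high with BV, so nothing is read from it.

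The 5 strongest rises in light-treated WT left no overlap between libraries. Cre07.g346950 had 55.6 and 54.6 RPKM in light-treated WT with BV, against 0.703 and 0.701 RPKM without (log2 difference 5.04 ± 0.09, limma adjusted p = 5.6e-16). Cre08.g372200 had 298.5 and 255.5 RPKM with BV, against 10 and 8.50 RPKM without BV (log2 difference 4.76 ± 0.13, limma adjusted p = 4.9e-12). Cre07.g346900 had 26.5 and 25.9 RPKM with BV, against 0.335 and 0.236 RPKM without (log2 difference 4.40 ± 0.10, limma adjusted p = 1.1e-14). These 3 genes were at or below 10 RPKM in the light without BV, and far above it with BV. Cre01.g029700 had 66.2 and 57.8 RPKM with BV, against 4.14 and 3.43 RPKM without BV (log2 difference 3.72 ± 0.11, limma adjusted p = 4.9e-13). Cre01.g045200 had 34.6 and 21.5 RPKM with BV, against 1.59 and 1.05 RPKM without (log2 difference 3.62 ± 0.19, limma adjusted p = 5.8e-09). Apart from Cre01.g045200, whose dark WT ratio was 16.26, these genes had dark WT ratios of 2.20 for Cre01.g029700 to 3.21 for Cre08.g372200, values that chose the genes and are given as a description.

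Cre03.g163950, first in the dark WT list, had no called BV effect in the light. It had 0.213 and 0.245 RPKM in light-treated WT with BV, against 0.332 and 0.0459 RPKM without, a log2 difference of 0.06 ± 0.10 (limma adjusted p = 0.68). In light-treated hmox1 it had 0.205 and 0.221 RPKM with BV, against 0.0988 and 0.0539 RPKM without (log2 difference 0.17 ± 0.10, limma adjusted p = 0.20). Its libraries after light held 1 to 17 reads for this gene, so a change at this level was hardly detectable at this depth. By contrast Cre14.g631141 and Cre06.g310950 rose with BV in light-treated WT as well, by 2.70 ± 0.30 and 2.23 ± 0.13 on the log2 scale (limma adjusted p = 4.0e-05 and 1.1e-09).

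The 7 genes that fell with BV in light-treated WT had, like all 75, been chosen for a higher level with BV in dark WT, so nothing is read from the opposite directions. Cre12.g517700 had 6.65 and 9.42 RPKM in light-treated WT with BV, against 41.0 and 41.8 RPKM without BV (log2 difference -2.25 ± 0.11, limma adjusted p = 3.5e-10). Cre05.g231450 had 1.39 and 1.46 RPKM with BV, against 7.39 and 6.95 RPKM without (log2 difference -1.75 ± 0.10, limma adjusted p = 1.4e-09). Cre01.g000650 had 6.49 and 10.2 RPKM with BV, against 18.9 and 20.7 RPKM without BV (log2 difference -1.18 ± 0.15, limma adjusted p = 7.0e-06). In all 3 genes both BV libraries lay below both others. Cre08.g380000, the most abundant of the fallers, had 132.9 and 164.3 RPKM with BV, against 235.1 and 250.1 RPKM without (log2 difference -0.71 ± 0.09, limma adjusted p = 1.2e-05). Cre10.g423550 had 10.6 and 14.0 RPKM with BV, against 15.5 and 15.2 RPKM without (log2 difference -0.31 ± 0.12, limma adjusted p = 0.042). Its call was lost under 13 of 24 alternatives, and without replicate 1 of light-treated WT with BV the difference was -0.12 (limma adjusted p = 0.40).

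In light-treated hmox1 BV raised 33 of the 75 genes and lowered 8, against 26.3% and 11.2% of all tested genes. The rising share of the set was 44%, and its median log2 difference was 0.27, against 0.13 over all tested genes, with a range of -1.56 to 4.15. Without replicate 1 of light-treated hmox1 with BV 5 genes fell, against 8.57% of all tested genes, and without replicate 2 of light-treated hmox1 without BV 4 fell, against 7.89%. The 5 largest rises of at least 5 RPKM belonged to the same genes as in WT. Cre07.g346950 had 64.1 and 74.8 RPKM in light-treated hmox1 with BV, against 3.07 and 2.87 RPKM without BV (log2 difference 4.15 ± 0.09, limma adjusted p = 7.5e-15). Cre07.g346900 had 19.5 and 22.2 RPKM with BV, against 0.678 and 0.629 RPKM without (log2 difference 3.72 ± 0.10, limma adjusted p = 1.2e-13). Cre01.g029700 had 93.7 and 97.0 RPKM with BV, against 19.3 and 17.4 RPKM without BV (log2 difference 2.32 ± 0.11, limma adjusted p = 2.0e-10). In the light with BV the Cre07 pair differed little from WT, by 0.32 ± 0.09 for Cre07.g346950 and -0.32 ± 0.10 for Cre07.g346900 (limma adjusted p = 4.9e-03 and 9.4e-03). Cre08.g372200 had 611.0 and 682.9 RPKM with BV, against 129.0 and 140.5 RPKM without (log2 difference 2.25 ± 0.13, limma adjusted p = 1.4e-08). Cre01.g045200 had 7.18 and 6.39 RPKM with BV, against 1.28 and 1.19 RPKM without (log2 difference 1.80 ± 0.19, limma adjusted p = 8.2e-06).

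The strains share no library in these 2 comparisons, although both rest on a spread per gene pooled over all groups. Of the set, 18 genes rose with BV in the light in both strains, which is 54.5% of the 33 in hmox1 and 56.2% of the 32 in WT. These are 24% of the set, against 17.6% of all tested genes that rose in both, and the share of the hmox1 rises that were shared with WT was 67% over all tested genes. In the set 5 genes, or 6.67%, fell in both, against 7.92% of all tested genes. Cre05.g231450 had 2.50 and 2.73 RPKM in light-treated hmox1 with BV, against 9.0 and 10.3 RPKM without BV (log2 difference -1.56 ± 0.10, limma adjusted p = 8.9e-09). Cre08.g380000 had 150.8 and 152.5 RPKM with BV, against 313.7 and 343.9 RPKM without (log2 difference -1.11 ± 0.09, limma adjusted p = 1.4e-07). Both thus fell in each strain. Cre06.g289100 was the 1 gene of the set that fell in hmox1 and rose in WT, against 0.58% of all tested genes. It had 0.921 and 1.39 RPKM in light-treated hmox1 with BV, against 2.51 and 2.68 RPKM without (log2 difference -0.75 ± 0.14, limma adjusted p = 6.2e-04). In light-treated WT it had 3.68 and 3.45 RPKM with BV, against 1.45 and 1.57 RPKM without (log2 difference 0.86 ± 0.14, limma adjusted p = 1.1e-04). Cre13.g569500 fell in light-treated hmox1 with 65.7 and 67.4 RPKM with BV, against 89.5 and 86.0 RPKM without (log2 difference -0.39 ± 0.12, limma adjusted p = 0.018). Its call was lost without each of the 4 light-treated hmox1 libraries in turn, with limma adjusted p from 0.056 to 0.10.

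**Figure D3:**
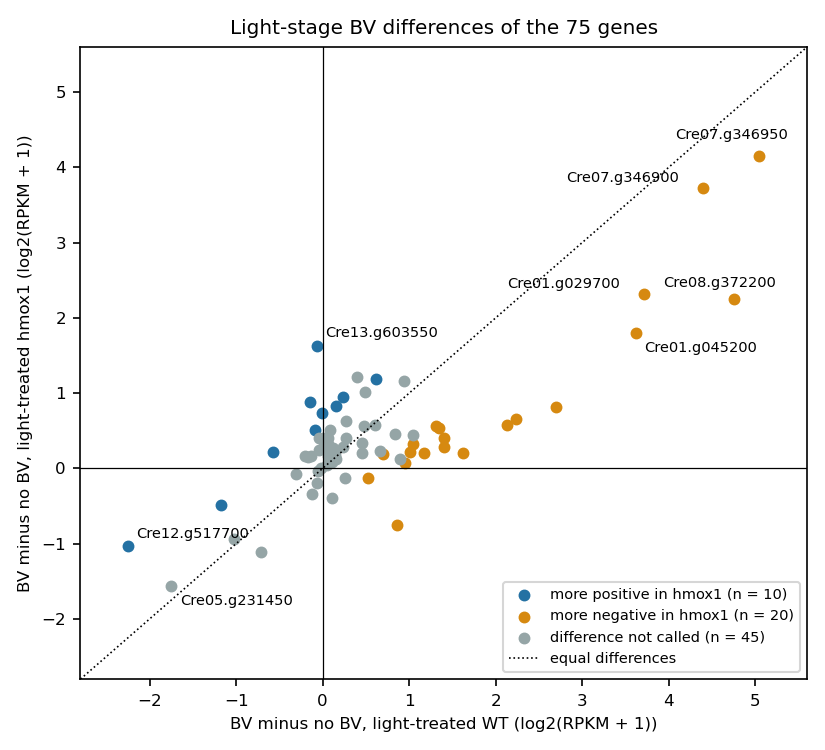
Each point is 1 of the 75 genes, with the BV difference after light in hmox1 (vertical axis) against that in WT (horizontal axis), both in log2(RPKM + 1). Colours mark whether the difference between the strains was called, with 10 genes shifted up and 20 shifted down in hmox1, and the 5 genes with the largest rise lie to the right, below the dotted line of equal differences.

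The size of the BV effect in the light was compared between the strains directly. It was more positive in hmox1 in 10 of the 75 genes and more negative in 20, against 2.45% and 6.11% of all tested genes. Thus 13.3% and 26.7% of the set were called. The median difference was 0.02, against 0 over all tested genes, with a range of -2.51 to 1.70. The number of more positive genes was 6 of the 52 that passed with only the 4 groups compared, against 1.51% of all genes tested there. It was also 6 without replicate 1 of light-treated WT with BV, replicate 2 of light-treated WT without BV, replicate 2 of light-treated hmox1 with BV or replicate 1 of light-treated hmox1 without BV, against 1.63%, 1.46%, 1.28% and 0.867% of all tested genes in that order. Cre08.g372200 had the most negative value, -2.51 ± 0.18 (limma adjusted p = 9.4e-07), followed among the genes of at least 5 RPKM by Cre14.g631141 with -1.87 ± 0.42 (limma adjusted p = 0.023) and Cre01.g045200 with -1.82 ± 0.27 (limma adjusted p = 8.7e-04). Cre06.g310950 had -1.58 ± 0.18 (limma adjusted p = 2.7e-05) and Cre01.g029700 had -1.41 ± 0.16 (limma adjusted p = 2.4e-05). In each of these 5 genes the log2 difference with BV was positive in both strains and smaller in hmox1. Cre08.g372200 and Cre01.g029700 stood higher in light-treated hmox1 than in WT under either treatment. Their means without BV were 134.8 and 18.4 RPKM in hmox1, against 9.26 and 3.78 RPKM in WT. With BV they were 646.9 and 95.3 RPKM in hmox1, against 277.0 and 62.0 RPKM in WT. The means of Cre14.g631141, Cre01.g045200 and Cre06.g310950 with BV were lower in hmox1. For Cre14.g631141 the libraries of light-treated WT with BV stood at 15.9 and 8.04 RPKM, and the call was lost without either light-treated hmox1 library with BV (limma adjusted p = 0.063 and 0.078), without either of those without BV (0.060 and 0.085) and without replicate 2 of light-treated WT without BV (0.065).

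The most positive difference between the strains belonged to Cre13.g603550, at 1.70 ± 0.39 (limma adjusted p = 0.025). It had 4.54 and 8.40 RPKM in light-treated hmox1 with BV, against 0.762 and 2.10 RPKM without (log2 difference 1.63 ± 0.28, limma adjusted p = 1.2e-03). In light-treated WT it had 0.169 and 0.375 RPKM with BV, against 0.447 and 0.228 RPKM without (log2 difference -0.07 ± 0.28, limma adjusted p = 0.86). Its libraries overlapped in WT and not in hmox1. The call of the difference was lost without replicate 1 of light-treated WT with BV (limma adjusted p = 0.082) and without replicate 1 or 2 of light-treated WT without BV (0.084 and 0.059). Cre12.g517700 fell less in hmox1 than in WT, by a difference of 1.22 ± 0.16 (limma adjusted p = 1.5e-04). It had 15.6 and 17.2 RPKM in light-treated hmox1 with BV, against 34.0 and 35.1 RPKM without. Cre07.g355500 rose more in hmox1, by 0.57 ± 0.14 (limma adjusted p = 0.015), a call lost without replicate 2 of light-treated hmox1 with BV (0.076) and without replicate 1 of those without BV (0.064). The difference of 0.70 ± 0.21 for Cre01.g000650 (limma adjusted p = 0.046) was lost under 21 of 24 alternatives, among them each left-out library except replicate 2 of light-treated WT with BV. Its limma adjusted p over these left-out libraries was 0.054 to 0.19.

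**Figure D4:**
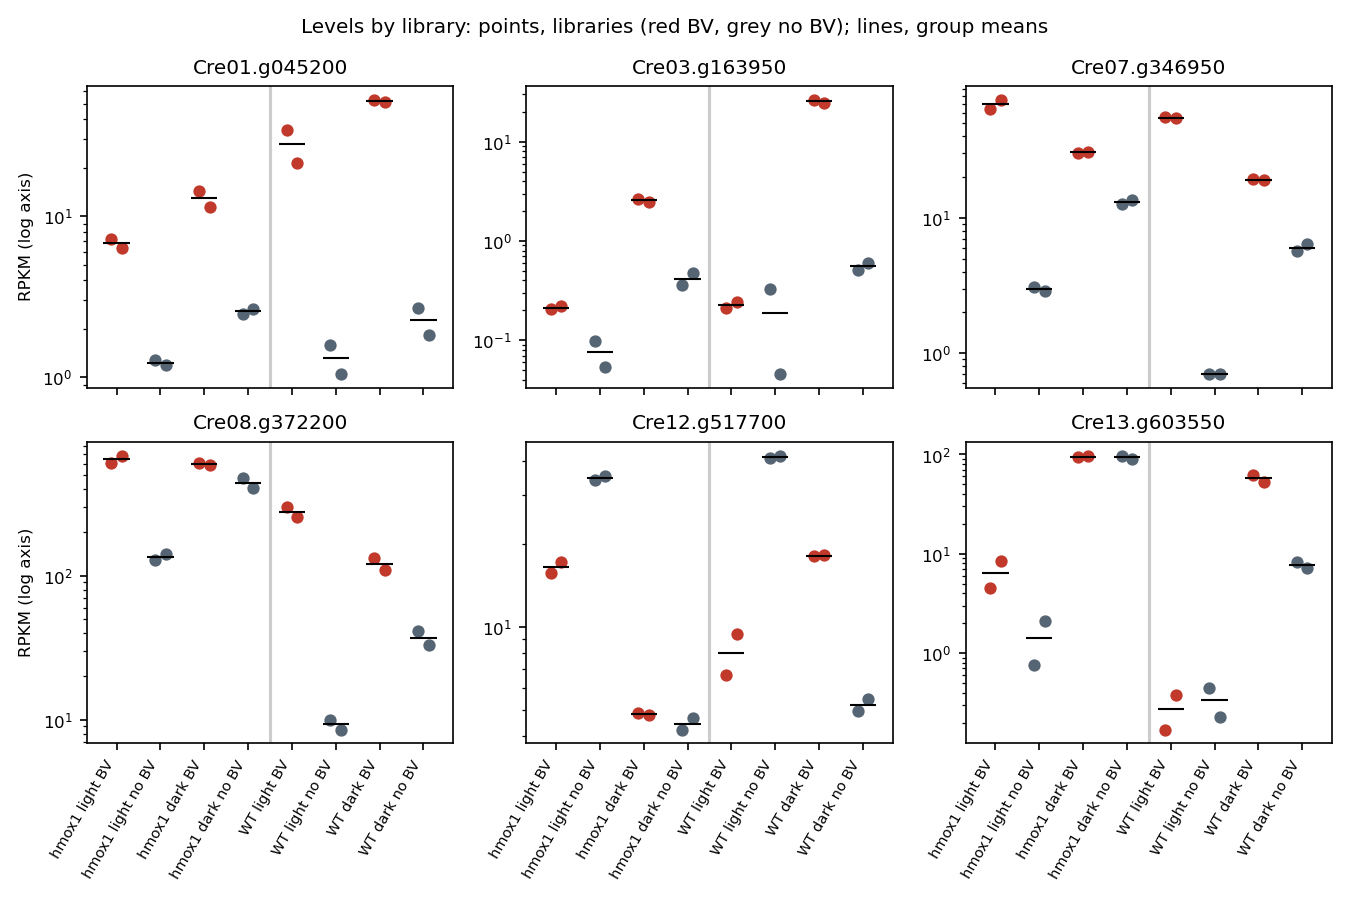
RPKM in each library (points, on a log axis) for 6 of the genes, with hmox1 to the left of WT, light to the left of dark, and BV (red) to the left of no BV (grey). Lines are group means of 2 libraries. Cre03.g163950 is high in dark WT with BV at 26.4 and 24.6 RPKM, Cre13.g603550 is high in dark hmox1 with either treatment, and Cre12.g517700 is highest after light without BV in both strains.

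Differences between light and dark were followed in hmox1, whose dark libraries did not choose the genes. Without BV, 12 of the 75 genes rose after light in hmox1 and 50 fell, against 21.3% and 55.2% of all tested genes. In the set these are 16% and 66.7%. The median log2 difference of the set was -0.58, against -0.35 over all tested genes, and the range was -5.34 to 3.99. TMM scaling brought the median over all tested genes to 0. Under it 14 rose and 43 fell, which is 18.7% and 57.3% of the set, against 36.3% and 35.7% of all tested genes. With quantile scaling 16 rose and 33 fell, which is 21.3% and 44% of the set, against 30.1% and 38.8% of all tested genes. The median of the set was then -0.17, against -0.07 over all tested genes. Cre13.g603550 fell to 0.762 and 2.10 RPKM in light-treated hmox1 without BV, against 97.4 and 90.1 RPKM in the dark (log2 difference -5.34 ± 0.28, limma adjusted p = 2.6e-08). Cre06.g271900 had 0.143 and 0.359 RPKM after light, against 6.83 and 6.89 RPKM in the dark (log2 difference -2.66 ± 0.13, limma adjusted p = 2.3e-11). Cre08.g377550 had 4.10 and 4.11 RPKM after light, against 22.9 and 20.4 RPKM in the dark (log2 difference -2.15 ± 0.14, limma adjusted p = 9.8e-10). Falls of similar size belonged to Cre03.g155250 and Cre03.g181200, by 2.71 ± 0.26 and 2.29 ± 0.15 on the log2 scale (limma adjusted p = 2.1e-06 and 1.6e-09).

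A smaller group rose. Cre08.g380000 had 313.7 and 343.9 RPKM in light-treated hmox1 without BV, against 18.5 and 21.1 RPKM in the dark (log2 difference 3.99 ± 0.09, limma adjusted p = 5.7e-15). Cre13.g569500 had 89.5 and 86.0 RPKM after light, against 7.22 and 7.11 RPKM in the dark (log2 difference 3.44 ± 0.12, limma adjusted p = 6.3e-13). Cre12.g517700 had 34.0 and 35.1 RPKM after light, against 4.22 and 4.67 RPKM in the dark (log2 difference 2.71 ± 0.11, limma adjusted p = 3.9e-12). These 3 genes, chosen as higher with BV in dark WT, thus rose with light in the mutant, and no BV effect on them was called in dark hmox1. Cre05.g231450 and Cre02.g133600 rose by 1.94 ± 0.10 and 1.67 ± 0.11 (limma adjusted p = 5.6e-11 and 7.8e-10). Of the 12 genes that rose with light in hmox1 without BV, BV lowered 6 in light-treated WT, raised 2 and left 4 without a call. The genes lowered and raised are 8% and 2.67% of the set, against 9.42% and 2.86% of all tested genes. Over all genes that rose with light there, 44.3% were lowered by BV and 13.5% raised, so the 50% and 16.7% of the set lay near these shares. Of the 50 that fell with light, BV raised 22 in light-treated WT, lowered 1 and left 27 without a call, so 29.3% and 1.33% of the set, against 23.6% and 1.23% of all tested genes, were raised and lowered. The 44% raised lay near the 42.8% over all genes that fell with light, and near the 42.7% of the whole set. These comparisons share no library.

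With BV present, 13 of the 75 genes rose after light in hmox1 and 50 fell, against 20.4% and 40.9% of all tested genes. The median log2 difference was -0.60, against -0.16 over all tested genes, with a range of -3.73 to 2.72. In all, 45 genes fell with light under both treatments and 9 rose under both, which is 60% and 12% of the set, against 38.8% and 16.6% of all tested genes. Cre07.g346900, Cre07.g346950 and Cre01.g029700 were the 3 genes of the set, or 4%, that rose with light in the presence of BV and fell in its absence, against 0.594% of all tested genes. With BV, Cre07.g346950 had 64.1 and 74.8 RPKM after light, against 30.4 and 30.9 RPKM in the dark. Without BV it had 3.07 and 2.87 RPKM after light, against 12.6 and 13.5 RPKM in the dark. Its light difference was 1.15 with BV and -1.82 without BV, and the difference between these values was not tested. Cre06.g289100 had 0.921 and 1.39 RPKM after light with BV, against 9.78 and 7.85 RPKM in the dark with BV (log2 difference -2.19 ± 0.14, limma adjusted p = 1.5e-09). Cre13.g603550 fell by 3.73 ± 0.28 and Cre06.g271900 by 2.76 ± 0.13 on the log2 scale (limma adjusted p = 9.4e-07 and 3.7e-11). Cre03.g205100 rose by 2.04 ± 0.15, with 5.56 and 6.65 RPKM after light against 0.782 and 0.673 RPKM in the dark (limma adjusted p = 8.2e-09). Cre56.g791150, among the most abundant members, had 159.5 and 169.8 RPKM after light, against 67.6 and 68.5 RPKM in the dark (log2 difference 1.26 ± 0.06, limma adjusted p = 6.5e-11).

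**Figure D5:**
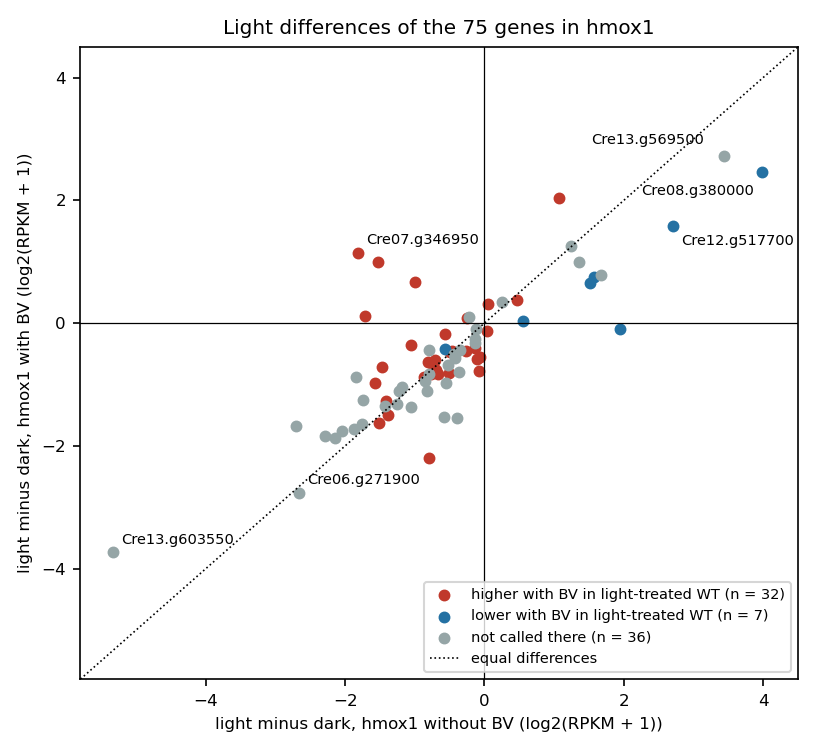
Each point is 1 of the 75 genes, with the light difference in hmox1 with BV (vertical axis) against that without BV (horizontal axis), both in log2(RPKM + 1). Colours give the BV call in light-treated WT, and the red points at the upper left with values of 0.67 to 1.15 on the vertical axis are Cre07.g346950, Cre07.g346900 and Cre01.g029700.

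In light-treated WT the differences from the dark are a description, since the dark WT libraries chose the genes. The median log2 difference was -1.56 with BV, against -0.37 over all tested genes, and -0.76 without BV, against -0.57. Cre03.g163950 had 0.213 and 0.245 RPKM after light with BV, against 26.4 and 24.6 RPKM in the dark with BV. Cre12.g518800 had 0.451 and 0.550 RPKM after light with BV, against 47.0 and 45.7 RPKM in the dark with BV. Cre01.g029250 had 0.596 and 0.811 RPKM after light with BV, against 20.7 and 18.8 RPKM in the dark with BV. These genes were thus high in the dark with BV and near or below 1 RPKM after light, with BV as without it.

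The strains were compared after light, where the rule used no library. Without BV, 21 of the 75 genes were higher in hmox1 than in WT and 7 lower, against 53.5% and 7.72% of all tested genes. The median gene of the whole table was shifted by 0.29 in log2 in this comparison, while the median of the set was 0.03, with a range of -2.20 to 3.73. With TMM scaling, which brought the median over all genes to 0.01, 9 were higher and 16 lower, against 26.4% and 28.7% of all tested genes. These are 12% and 21.3% of the set. With quantile scaling 7 were higher and 28 lower, or 9.33% and 37.3%, against 19.3% and 20.9% of all tested genes. The number of lower genes was 11 without replicate 1 or replicate 2 of light-treated WT with BV, against 8.88% and 8.87% of all tested genes. Cre08.g372200 had 129.0 and 140.5 RPKM in light-treated hmox1 without BV, against 10 and 8.50 RPKM in WT (log2 difference 3.73 ± 0.13, limma adjusted p = 5.8e-11). Cre13.g583450 had 7.76 and 7.35 RPKM in hmox1, against 1.36 and 0.626 RPKM in WT (log2 difference 2.13 ± 0.13, limma adjusted p = 3.5e-09). Cre10.g423550 had 2.89 and 2.25 RPKM in hmox1, against 15.5 and 15.2 RPKM in WT (log2 difference -2.20 ± 0.12, limma adjusted p = 5.9e-10). These differences exceeded the shift of the median gene. The smaller differences of Cre08.g380000, 0.44 ± 0.09, and Cre05.g231450, 0.38 ± 0.10 (limma adjusted p = 8.3e-04 and 4.3e-03), turned to -0.01 and -0.02 with TMM. The call of Cre05.g231450 was also lost without replicate 2 of light-treated hmox1 without BV (limma adjusted p = 0.067). Cre02.g133600, lower by 0.37 ± 0.11 in hmox1 (limma adjusted p = 7.8e-03), lost its call without replicate 1 of that group (0.12).

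With BV, 25 of the 75 genes were higher in light-treated hmox1 than in WT and 24 lower, against 52.2% and 9.23% of all tested genes. On the authors' scaling the set thus held a larger share of lower genes than the table as a whole. The median of the set was 0.02, against 0.29 over all tested genes, with a range of -1.96 to 2.51. With TMM 17 were higher and 30 lower, or 22.7% and 40% of the set, against 22.9% and 31.7% of all tested genes. The share of higher genes was then near that of all genes, and the excess of lower genes was smaller. With quantile scaling 15 were higher and 36 lower, or 20% and 48% of the set, against 21.7% and 23.1%. On the authors' scaling the lower genes made up 32% of the set. Cre13.g603550 had 4.54 and 8.40 RPKM in hmox1, against 0.169 and 0.375 RPKM in WT (log2 difference 2.51 ± 0.28, limma adjusted p = 3.5e-05). Cre03.g195300 had 5.17 and 5.61 RPKM in hmox1, against 0.623 and 0.618 RPKM in WT (log2 difference 1.98 ± 0.12, limma adjusted p = 2.4e-09). Cre06.g310950 had 1.10 and 1.13 RPKM in hmox1, against 7.59 and 5.75 RPKM in WT (log2 difference -1.85 ± 0.13, limma adjusted p = 1.3e-08). Cre01.g045200 was lower in hmox1 by a log2 difference of -1.86 ± 0.19 (limma adjusted p = 3.8e-06), and without BV the difference was not called (-0.04 ± 0.19, limma adjusted p = 0.86). Cre14.g631141 was lower by -1.0 ± 0.30 (limma adjusted p = 0.015), a call lost without replicate 1 of light-treated WT with BV, where the difference was -0.55 (0.11), and without either light-treated hmox1 library with BV (0.050 and 0.064).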

How the data were processed

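The deposited table holds 17301 genes and 16 columns, 1 per library, each tied to its sample by the column name. Its values are RPKM made by the authors. The header names no unit. It was inferred because, per gene and library, each value is a whole number of equal steps, with 1 step worth 1 read. Bowtie was used, per the submitters' processing notes. Not given in the sources used here are its version, the counting program with its handling of strand and of reads that match in several places, the annotation and the genome build, so no coordinates are printed. Reads were single-end, per the labels' protocols, and reads shared by overlapping or similar genes cannot be told apart.

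Whole reads were recovered from the RPKM steps within a tolerance of 0.1 reads for 16851 of 16852 genes above 0. They served for depth and for TMM scaling, and read counts and floors cover counting error only. limma 3.58.1 in R 4.3.3 was run on log2(RPKM + 1) on the authors' scaling. It fitted 1 mean per group over the 16 libraries, with robust moderation towards a mean trend and 8 residual degrees of freedom. The test took the 13972 genes that reached 1 RPKM in 2 libraries or more. Benjamini-Hochberg adjustment ran over these genes separately for 8 comparisons, and a call needs an adjusted p under 0.05. The code was tested on simulated data. Differences on the log2(RPKM + 1) scale understate the change of low genes.

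Of the 75 identifiers 57 match a RefSeq locus tag of the assembly Chlamydomonas_reinhardtii_v5.5, and 0 of its 17742 genes have another symbol, so lists of genes by name were not applied. The genes and the lists were chosen with earlier results of these data known, and 1 further identifier that met the choice is not reported here. Genes are mostly named when they are at least 200 nt long and reach 5 RPKM in the higher group. Exceptions are Cre03.g189900 and Cre34.g783400 of 89 nt, Cre02.g137950 with a mean under 5 RPKM in every group, and some genes just outside the threshold. Named are the 12 with the highest ratio in dark WT, the 5 with the highest level there, up to 5 called genes per direction and comparison without overlap between libraries (overlap not asked for the difference of effects), the 3 on either side of the threshold and neighbours by identifier. Replicate numbers were checked as pairs: over 28 pairs of groups the deviations of same-numbered libraries correlated with r of -0.15 to 0.27 (median 0.07), above 0.1 in 10. Same-numbered libraries of some groups thus deviated together weakly. The main fit did not pair the libraries, and a replicate block was run as an alternative. Alternatives were a pseudocount of 0.1, no filter, TMM and quantile scaling, no trend, fewer libraries, a replicate block and each library left out in turn.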

Additional observations from a re-analysis of the deposited data

Results flagged for a closer look

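The BV effect after light differed between hmox1 and WT, by a test of the difference itself, in 30 of the 75 genes. It was more positive in hmox1 in 10 and more negative in 20, against 2.45% and 6.11% of all tested genes. The named genes with a more positive effect were Cre13.g603550 at 1.70, Cre12.g517700 at 1.22, Cre01.g000650 at 0.70 and Cre07.g355500 at 0.57 in log2. Those with a more negative effect were Cre08.g372200 at -2.51, Cre14.g631141 at -1.87, Cre01.g045200 at -1.82, Cre06.g310950 at -1.58 and Cre01.g029700 at -1.41. These values stand apart because the same treatment gave unequal changes in the strains on the log2 scale. All 9 of these values rest in part on light-treated WT with BV, whose libraries differed most from each other. The call was lost under 21 alternatives for Cre01.g000650, 8 for Cre14.g631141, 6 for Cre13.g603550 and 3 for Cre07.g355500.

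In some named genes both libraries with BV lay above both without BV in the dark, and below both after light, in the same strain. The difference between dark and light was not tested, and the dark WT values chose the genes, so in WT nothing is read from the dark side. In dark hmox1 limma called the rise of Cre02.g133600 (adjusted p = 0.038) and that of no other gene listed here, with adjusted p of 0.074 for Cre05.g231450 and Cre06.g289100, 0.076 for Cre08.g380000, 0.57 for Cre13.g569500, 0.68 for Cre01.g000650 and 0.99 for Cre12.g517700. In WT the log2 differences with BV after light were -2.25 for Cre12.g517700, -1.75 for Cre05.g231450, -1.18 for Cre01.g000650 and -0.71 for Cre08.g380000. Smaller ones in WT were -0.31 for Cre10.g423550, -0.20 for Cre01.g029250 and -0.12 for Cre02.g133600, of which limma did not call the last pair (adjusted p = 0.21 and 0.39). In hmox1 they were -1.56 for Cre05.g231450, -1.11 for Cre08.g380000 and -1.03 for Cre12.g517700. Smaller ones in hmox1 were -0.75 for Cre06.g289100, -0.48 for Cre01.g000650, -0.39 for Cre13.g569500 and -0.34 for Cre02.g133600. With 2 libraries a group, single groups could not be screened for a library that stands apart.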

How the results depend on the processing

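With 2 libraries a group and a spread pooled over groups, leaving out a library leaves a lone one that is assumed to vary like the other groups. Where a count moved by over 1.5 times, its range over left-out libraries was 6 to 13 for a more positive BV effect in light-treated hmox1, 9 to 18 for rises with BV in dark hmox1, 4 to 8 for falls with BV in light-treated hmox1, 4 to 7 for falls in light-treated WT and 6 to 11 for genes lower in light-treated hmox1 than in WT without BV. Over the same left-out libraries the shares of all tested genes moved too, so nothing about the set is read from these ranges alone. Where the more positive BV effects reached 13, the share of all tested genes had risen by a larger factor than the count. The excess of the set over all genes was thus smaller there than in the main fit. With only the groups compared, the more positive BV effects numbered 6 of 52, against 1.51% of all genes tested there. With TMM, the genes higher in light-treated hmox1 without BV were 9 and the lower ones 16, against 26.4% and 28.7% of all tested genes. With quantile scaling they were 7 and 28, against 19.3% and 20.9%. The shares of all tested genes thus moved with the scaling too, from 53.5% and 7.72% on the authors' scaling. With quantile scaling, 15 were higher in light-treated hmox1 with BV, against 21.7% of all tested genes. Also under it 14 fell with BV in light-treated WT, against 18.2%, and 33 fell with light in hmox1 without BV, against 38.8%. The strain differences of Cre05.g231450 and Cre08.g380000 in the light without BV turned to -0.02 and -0.01 with TMM, where the median of all genes moved from 0.29 to 0.01. The cause of the changes in counts was not tested. A replicate block gave 16 rises with BV in dark hmox1, against 0.222% of all tested genes, and all 73 named results kept their call under it. Apart from TMM scaling, which reversed the 2 strain differences given above, no alternative reversed any of the 73. The pseudocount of 0.1 lost 5 of them, no filter 2, quantile scaling 3, no trend 1, only the groups compared 5 and only the 12 libraries outside the choice 4. Depth limits genes near 0.147 RPKM, the level of 3 reads in a 2-kb gene in the shallowest library.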

Other observations

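The neighbours by identifier did not all change alike with BV after light. In light-treated WT Cre02.g107165 rose by 1.35 ± 0.15 and Cre02.g107200 by 1.17 ± 0.17 on the log2 scale (SE, limma adjusted p = 4.4e-06 and 1.4e-04), and both effects were smaller in light-treated hmox1, by -0.81 ± 0.22 and -0.98 ± 0.24 (limma adjusted p = 0.032 and 0.027). Cre02.g107200 was abundant, with 104.8 and 70.2 RPKM in light-treated WT with BV, against 40.5 and 34.9 RPKM without. For Cre10.g426100 and Cre10.g426150 the BV differences in light-treated WT were 0.08 ± 0.09 and 0.06 ± 0.13 (limma adjusted p = 0.49 and 0.76). Both fell with light in hmox1 without BV, by 0.83 ± 0.09 and 0.79 ± 0.13 on the log2 scale (limma adjusted p = 4.3e-07 and 4.1e-05). Of the members with one gene between them, Cre06.g310950 rose with BV in light-treated WT by 2.23 ± 0.13 (limma adjusted p = 1.1e-09), and Cre06.g311050 had a difference of 0.01 ± 0.12 (limma adjusted p = 0.98).

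Cre16.g679750 and Cre01.g004750 had dark WT ratios above 5 and means under 5 RPKM in every group other than dark WT with BV. Cre16.g679750 had 4.37 and 2.93 RPKM in light-treated WT with BV, against 0.105 and 0 RPKM without (log2 difference 2.13 ± 0.13, limma adjusted p = 4.5e-09). In light-treated hmox1 it had 0.628 and 0.526 RPKM with BV, against 0.0883 and 0.0193 RPKM without (log2 difference 0.58 ± 0.13, limma adjusted p = 3.0e-03). Without BV this gene had 3 and 0 reads in light-treated WT, and 2 and 1 reads in light-treated hmox1. The low side of both comparisons is thus near the counting floor. Cre01.g004750 had 2.44 and 1.71 RPKM in light-treated WT with BV, against 0.155 and 0.152 RPKM without (log2 difference 1.40 ± 0.11, limma adjusted p = 3.4e-08). Both had smaller BV effects in light-treated hmox1 than in WT, by -1.55 ± 0.19 and -1.01 ± 0.15 (limma adjusted p = 7.1e-05 and 4.8e-04).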
